A study of Mus musculus with 18 samples.

Results

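The comparison described here sets 4 arrays of late embryonic mouse liver, 2 of 14.5 and 2 of 16.5 days post conception (dpc), against 4 arrays of middle embryonic liver, 2 of 12.5 and 2 of 13.5 dpc. These 8 arrays were taken from 18 by the stage in their source names. All embryos were of CD-1, an outbred mouse stock, with no treatment named. Tissue of 5 or more embryos was pooled for each embryonic sample, and livers were dissected free of surrounding tissue. The other arrays used are 2 each of liver at 10.5 and 11.5 dpc and 2 of 10-week-old normal female liver, which place a change outside the 4 stages. Values are probe set intensities on a linear scale. They were raised to a floor of 24.8 before log2 was taken, so a value printed under the floor counted as the floor. Pooling 2 adjacent stages per side gives 4 arrays each for changes that run over several days.

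The fetal liver at these stages is both a growing gland and the main site of blood formation. Hepatoblasts, the fetal parenchymal cells, turn on the genes of plasma protein secretion and of amino acid, nitrogen and drug metabolism, while red cell precursors and young myeloid cells mature between them. RNA of the whole organ mixes these cells, so more cells of a type and more RNA per cell cannot be told apart in any value given here.

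The genes that rose in late liver included 16 of hepatocyte function, among them drug-metabolising, urea cycle and plasma protein genes. A gene was called when limma's adjusted p was under 0.05 and the difference at least 1.5-fold. Of 12770 genes tested, 39 rose (0.305%) and 8 fell (0.0626%), 0.368% in all. Each array's values were used as deposited, and after scaling to the same median 17 rose and 9 fell. In 11 lists of hepatocyte function, which cover plasma carriers, apolipoproteins, clotting, complement, protease inhibitors, the urea cycle, amino acid breakdown, cytochrome P450, conjugation, bile acids and glucose production, 16 of 156 tested members rose and 0 fell. The 4 late arrays lay above all 4 middle arrays for 101 of these 156 genes and below them for 1, against 7.19% and 5.76% of all tested genes. Counts of genes wholly above or wholly below given further on are to be read against these 2 shares. The median difference of the 156 was 0.49 log2, against 0.04 for all genes. Of the 156, 17 passed the filter on dim probe sets through late arrays alone, which favoured a higher late value in them. Among the other 139, 10 were called and 89 lay wholly above, with a median of 0.43 log2. Of the 39 genes that rose, 10 also passed the filter only through late arrays, and their p-values are given as a description and support nothing. They are Akr1d1, Arg1, Cyp2d26, Cyp3a11, Cyp4a12a, Gm28453, Hao1, Hp, Sult1a1 and Upb1. The filter or the annotation left 84 list members untested. Without the 12.5 dpc arrays, the median over 155 members was 0.33 log2 and 18 were called. In that fit 31 of 12507 genes were called in either direction. Only 14 of the 47 calls made with all 8 arrays were kept in it.

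The number of calls depended on single arrays and on how stages were treated. Each side holds 2 arrays of each of 2 stages, which the fit takes as 4 independent arrays. With stage as a random block (correlation 0.139) 12 genes rose and 2 fell, and 33 of the 47 calls were lost. Of the 16 hepatocyte genes 6 kept their call, namely Akr1d1, Cps1, Cyp3a11, Fbp1, Hc and Sult1a1. Of these, Akr1d1, Cyp3a11 and Sult1a1 passed the filter only through late arrays, so their kept calls support nothing. Without both 16.5 dpc arrays 0 of the 47 calls were kept. With all 8 arrays 47 genes were called, and the adjusted p of these lay between 0.00133 and 0.0494. Leaving out array 1 of 12.5 dpc left 5 calls, array 1 or 2 of 14.5 dpc 3 each, array 1 of 16.5 dpc 2 and array 2 of 16.5 dpc 15. Leaving out array 1 of 13.5 dpc gave 81. Leaving out array 2 of 12.5 or of 13.5 dpc gave 38 and 31. At an unadjusted p under 0.05, 1475 genes were higher and 1016 lower in late liver, together 19.5% of those tested. Counts at an unadjusted p given below are to be read against that share. The 2-group fit counts differences between the stages of a side as spread. It therefore favours genes whose step falls between 13.5 and 14.5 dpc, and nothing is read from the size of that step among called genes.

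The 8 arrays were close in technical measures. Their medians ran from 74.6 to 79.5 in late and from 72.6 to 75.4 in middle liver. The 3' to 5' ratio ran from 0.843 to 0.886 for Gapdh and from 1.30 to 1.56 for beta-actin. Pairwise correlations over probe sets ran from 0.953 to 0.980. Arrays of 1 stage correlated at 0.975 to 0.980. The labels call the arrays of a stage biological replicates without naming litters, and the p-values cover only the spread among these pools. Albumin, the main plasma protein, and alpha-fetoprotein, its fetal relative, marked every array as liver. Alb read 8941, 8581, 8695 and 8651 on the late arrays, against 8524, 8035, 8537 and 8865 on the middle arrays. Afp read 6249.8, 6259.5, 6510.0 and 6574 in late and 6083, 5971, 5963 and 6065 in middle liver. The summed level of 5 hepatocyte markers, Alb and Afp among them, was 31564 to 33261 in late and 23227 to 29148 in middle liver. The 12.5 dpc arrays stood apart in heart muscle transcripts, described below. Their part in other differences was not tested, and for many lists the median without these arrays is given too. Without the 13.5 dpc arrays several medians were larger, with 1.10 log2 for clotting, 0.71 for conjugation, 0.57 for plasma carriers and 0.50 for bile acids.

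The 5 called genes of the hepatocyte lists with the largest increase and a single RefSeq promoter are shown, with 250 bases before and 50 after their start. They were picked by that increase, and all but Pzp passed the filter only through late arrays. The windows are from RefSeq on GRCm38.p6, read 5′ to 3′ on the gene's strand. Capitals mark a match on either strand to core letters of 5 elements. For the liver factor HNF1 these letters are GTTAAT, and for the liver factor HNF4 they are CAAAGT. For the C/EBP family they are TTGCNNAA, for the blood-cell factors of the GATA family the letters searched were AGATAA, and for the core promoter element that binds TBP the letters searched were TATAAA. No 2 matches overlapped in the windows printed.
Cyp2d26, chr15:82794196-82794495, minus strand: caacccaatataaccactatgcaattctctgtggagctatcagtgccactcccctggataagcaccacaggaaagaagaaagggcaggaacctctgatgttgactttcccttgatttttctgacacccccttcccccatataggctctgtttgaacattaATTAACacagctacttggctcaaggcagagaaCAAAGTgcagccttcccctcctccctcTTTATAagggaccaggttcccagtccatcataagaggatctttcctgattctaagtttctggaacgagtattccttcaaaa
Sult1a1, chr7:126676369-126676668, minus strand: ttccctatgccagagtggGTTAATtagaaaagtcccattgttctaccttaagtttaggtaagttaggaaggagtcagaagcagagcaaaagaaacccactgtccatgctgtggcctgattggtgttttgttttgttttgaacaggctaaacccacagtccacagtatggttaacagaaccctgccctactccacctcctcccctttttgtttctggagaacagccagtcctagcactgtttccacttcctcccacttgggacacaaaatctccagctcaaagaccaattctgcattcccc
Cyp3a11, chr5:145879805-145880104, minus strand: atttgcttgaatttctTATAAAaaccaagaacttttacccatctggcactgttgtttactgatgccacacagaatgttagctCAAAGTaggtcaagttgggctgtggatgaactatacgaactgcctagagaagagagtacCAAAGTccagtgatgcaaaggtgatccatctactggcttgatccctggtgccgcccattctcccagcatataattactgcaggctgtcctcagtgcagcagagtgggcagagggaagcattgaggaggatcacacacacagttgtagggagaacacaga
Akr1d1, chr6:37529923-37530222, plus strand: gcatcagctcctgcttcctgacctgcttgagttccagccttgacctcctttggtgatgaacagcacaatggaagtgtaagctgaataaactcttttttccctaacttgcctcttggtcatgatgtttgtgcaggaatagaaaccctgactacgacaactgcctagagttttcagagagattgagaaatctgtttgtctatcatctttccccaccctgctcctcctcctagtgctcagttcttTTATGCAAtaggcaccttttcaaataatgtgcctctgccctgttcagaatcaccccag
Pzp, chr6:128526671-128526970, minus strand: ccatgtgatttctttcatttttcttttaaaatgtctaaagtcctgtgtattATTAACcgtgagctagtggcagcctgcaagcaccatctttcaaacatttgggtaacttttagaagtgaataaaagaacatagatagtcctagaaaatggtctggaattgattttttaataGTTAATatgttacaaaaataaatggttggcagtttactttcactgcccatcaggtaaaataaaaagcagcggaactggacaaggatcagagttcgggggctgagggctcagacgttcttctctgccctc

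Of the 16 called hepatocyte genes, 13 matched a promoter by symbol, and GTTAAT was in 5 of them (38.5%), against 5.60% of the 10288 tested genes with a promoter. CAAAGT was in 3 of 13, against 14.3%, and TTGCNNAA in 4 of 13, against 9.98%. AGATAA was in 3 of 13, against 8.57%, and TATAAA in 4 of 13, against 10.0%. Cyp3a11 held CAAAGT at 2 places, and Pzp held GTTAAT at 2. These are matches of letters in a short window of few genes, with no test, and they are not binding sites. No share was computed for uncalled members of the hepatocyte lists, so the shares are not tied to the increase in late liver.

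Drug and steroid metabolism is shown by 2 called genes that were near the floor in middle liver. Cyp2d26 and Cyp3a11 encode cytochrome P450 enzymes, which oxidise drugs and steroids. Cyp2d26 read 173 and 166 at 14.5 dpc and 239.9 and 182 at 16.5 dpc, against 32.0 and 6.00 at 12.5 dpc and 61.9 and 67.8 at 13.5 dpc. All late arrays lay above all middle arrays, with a difference of 2.14 log2 (SE 0.31, adjusted p = 0.0383). Cyp3a11 read 173 and 167 at 14.5 dpc and 144 and 156 at 16.5 dpc, against 40.4 and 23.7 at 12.5 dpc and 47.5 and 46.7 at 13.5 dpc, a difference of 2.05 log2 (SE 0.21, adjusted p = 0.00977). Both genes had 1 middle array under the floor, which shrinks their difference and its error, and both passed the filter through late arrays alone. Of 11 tested P450 genes in the list 6 had late arrays wholly above, and the median was 0.53 log2. All 11 were higher in adult than in late liver, against 35.3% of all tested genes.

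Conjugation enzymes attach polar groups to drugs and hormones. Sult1a1, a phenol sulfotransferase, read 126 and 137 at 14.5 dpc and 152 and 129 at 16.5 dpc, against 26.1 and 13.8 at 12.5 dpc and 42.5 and 41.6 at 13.5 dpc. Here the 13.5 dpc arrays were the highest of the middle arrays, and the difference was 2.05 log2 (SE 0.22, adjusted p = 0.00977). Ugt2b36, a glucuronosyltransferase, read 269 and 318 at 14.5 dpc and 303 and 291 at 16.5 dpc, against 143 and 73.5 at 12.5 dpc and 142 and 152 at 13.5 dpc, with array 2 of 12.5 dpc the lowest. Its difference was 1.27 log2 (SE 0.21, adjusted p = 0.046). Gsta3, a glutathione transferase named after its values were seen, differed by 1.57 log2 with adjusted p = 0.0708 and was not called. Of 18 tested members of the list 3 rose, 9 lay wholly above and the median was 0.40 log2 (0.29 log2 without 12.5 dpc). Gnmt, which the list holds with the amino acid enzymes below, is the other called member.

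The bile acid list had 1 called gene. Akr1d1 encodes the 5-beta-reductase that forms the ring shape of bile acids. It read 71.2 and 80.7 at 14.5 dpc and 76.4 and 86.1 at 16.5 dpc, against 18.7 and 0.776 at 12.5 dpc and 23.3 and 25.3 at 13.5 dpc. Of the middle arrays 3 lay under the floor and the other just above it, so the difference of 1.65 log2 (SE 0.20, adjusted p = 0.0157) is compressed. Cyp7a1, the rate-limiting enzyme of bile acid synthesis, lay wholly above in late liver with 0.55 log2 and adjusted p = 0.134, and was not called. Of 15 tested members all 15 had a positive difference, 6 lay wholly above and the median was 0.29 log2 (0.19 log2 without 12.5 dpc).

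The urea cycle turns ammonia into urea. Its first enzyme, Cps1, read 577 and 608 at 14.5 dpc and 622 and 652 at 16.5 dpc, against 251 and 175 at 12.5 dpc and 244 and 267 at 13.5 dpc. Here the late arrays stood close together and far above the middle ones, with a difference of 1.41 log2 (SE 0.13, 95% interval 1.12 to 1.70, adjusted p = 0.00516). Arg1, the last enzyme of the cycle, read 118 and 132 at 14.5 dpc and 137 and 141 at 16.5 dpc, against 45.7 and 23.4 at 12.5 dpc and 59.5 and 54.5 at 13.5 dpc, with array 2 of 12.5 dpc under the floor. Its difference was 1.59 log2 (SE 0.26, adjusted p = 0.0445). The other tested members of this list of 12 were not called. Otc, the second enzyme, differed by 0.67 log2 with adjusted p = 0.144. The list's median was 0.22 log2, and 5 of 12 lay wholly above.

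Amino acid breakdown gave 3 called genes, with a median of 0.45 log2 (0.28 log2 without 12.5 dpc) over 20 tested members and 15 wholly above. Gnmt, the glycine methyltransferase that consumes S-adenosylmethionine, read 223 and 221 at 14.5 dpc and 222 and 186 at 16.5 dpc, against 80.0 and 45.5 at 12.5 dpc and 101 and 87.9 at 13.5 dpc, a difference of 1.49 log2 (SE 0.22, adjusted p = 0.0383). Fah and Hpd are enzymes of tyrosine breakdown. Fah read 557 and 550.2 at 14.5 dpc and 497 and 518 at 16.5 dpc, against 313 and 239.6 at 12.5 dpc and 333 and 385 at 13.5 dpc, and Hpd read 792 and 766 at 14.5 dpc and 779 and 976 at 16.5 dpc, against 502 and 380.3 at 12.5 dpc and 549.8 and 542 at 13.5 dpc. Neither gene's groups overlapped, with differences of 0.76 log2 for Fah (SE 0.13, adjusted p = 0.0475) and 0.76 log2 for Hpd (SE 0.13, adjusted p = 0.0475). Mat1a, which makes S-adenosylmethionine in liver, had a difference near that of Gnmt, 1.48 log2, but adjusted p = 0.0857.

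Fbp1, a rate-limiting enzyme of glucose production, read 184 and 227 at 14.5 dpc and 314 and 300.5 at 16.5 dpc, against 94.3 and 70.1 at 12.5 dpc and 66.0 and 106 at 13.5 dpc. Both 16.5 dpc arrays lay above both of 14.5 dpc, and all of these above the middle arrays. The difference between the sides was 1.60 log2 (SE 0.21, adjusted p = 0.0191). The other 8 tested genes of glucose production and glycogen were not called, 5 of 9 in all lay wholly above and the list's median was 0.38 log2.

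**Figure D1:**
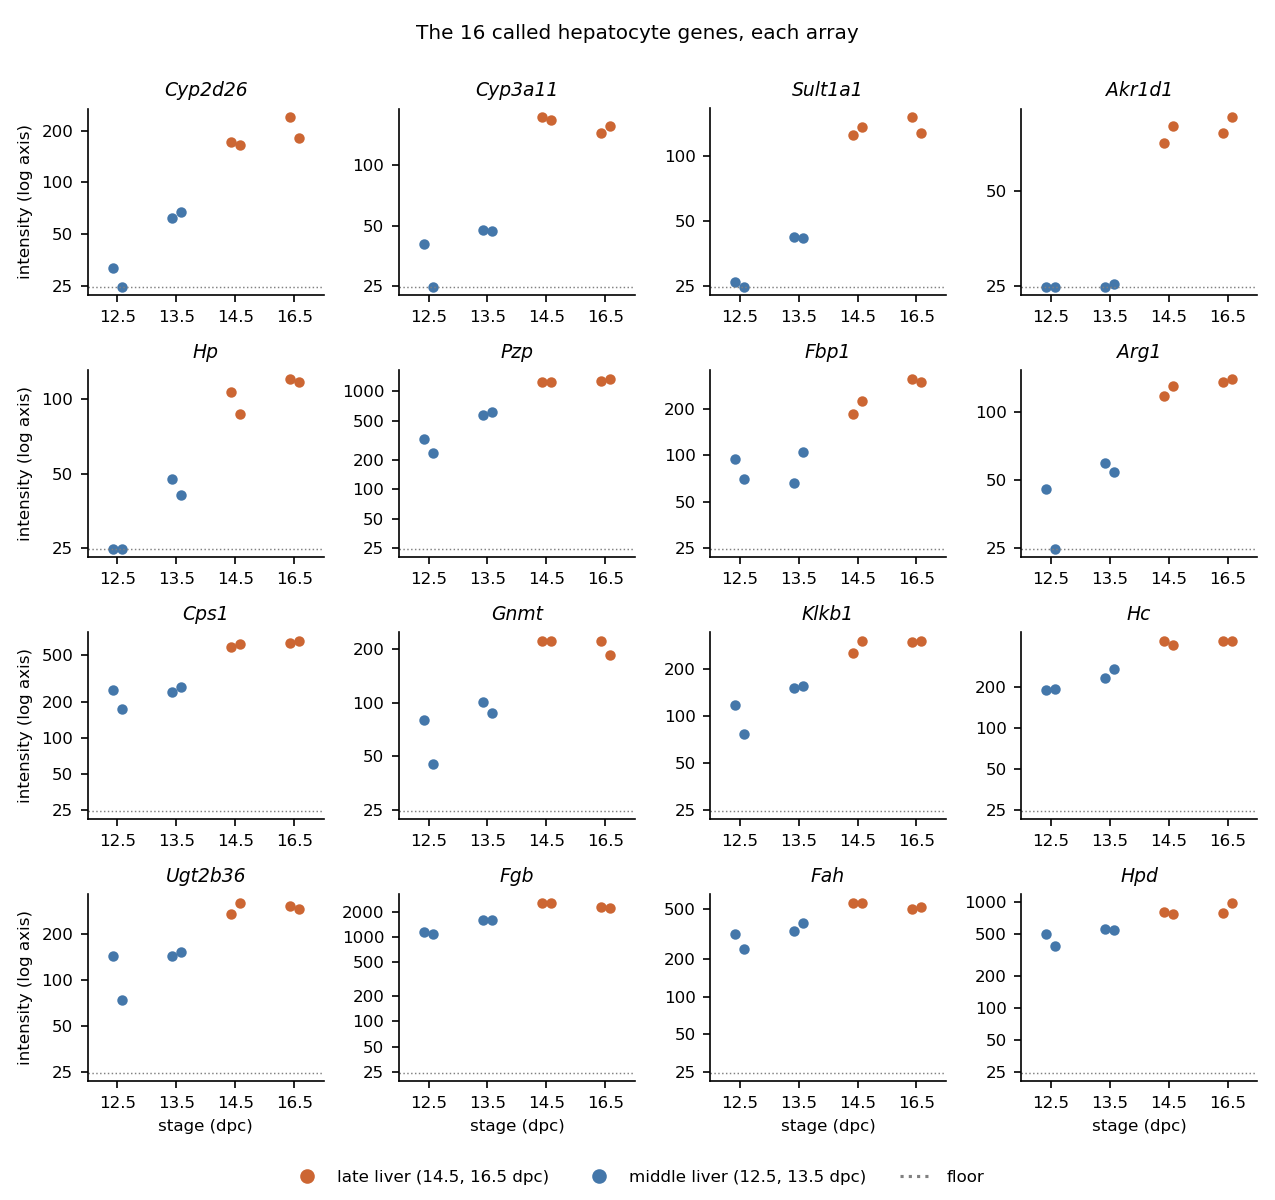
Probe set intensity (log axis, with values under the floor drawn at it) of the 16 called hepatocyte genes on each of the 8 arrays by stage, 2 arrays a stage, in orange for late and blue for middle liver. In every panel the 4 late arrays lie above the 4 middle arrays. Akr1d1 and Hp have 3 and 2 middle arrays at the floor.

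Among secreted plasma proteins the protease inhibitors were the most uniform list. Of 11 tested members of the serpin and inter-alpha-trypsin inhibitor list, all 11 lay wholly above. The list's median was 0.77 log2 (0.57 log2 without 12.5 dpc). Such inhibitors block proteases in plasma. Pzp, a broad protease trap of the macroglobulin family that the list also holds, was the only called member. It read 1249 and 1238 at 14.5 dpc and 1278 and 1333 at 16.5 dpc, against 329 and 234 at 12.5 dpc and 578 and 620.1 at 13.5 dpc. Here the 12.5 dpc arrays were the lowest and the late arrays near one level, and the difference was 1.64 log2 (SE 0.27, adjusted p = 0.046). Itih4, of the heavy-chain inhibitor family, had a larger difference, 2.13 log2, with SE 0.58 and adjusted p = 0.108, and was not called.

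The clotting list held 17 of 19 tested members wholly above, with a median of 0.72 log2, and of 0.37 log2 without the 12.5 dpc arrays. Fgb, the fibrinogen beta chain, read 2540.3 and 2507 at 14.5 dpc and 2255 and 2209 at 16.5 dpc, against 1137 and 1076 at 12.5 dpc and 1592 and 1585 at 13.5 dpc, and differed by 0.84 log2 (SE 0.13, adjusted p = 0.0443). Klkb1, plasma prekallikrein, read 251 and 299.9 at 14.5 dpc and 296 and 301 at 16.5 dpc, against 118 and 76.4 at 12.5 dpc and 152 and 154 at 13.5 dpc, and differed by 1.25 log2 (SE 0.20, adjusted p = 0.046). These were the 2 called members. F11, coagulation factor XI, reached 1.30 log2 with adjusted p = 0.0818, and the lowest difference of the list was that of Pros1, -0.07 log2.

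In the complement list 10 of 14 tested members lay wholly above and the median was 0.72 log2 (0.47 log2 without 12.5 dpc). Hc, complement component C5, read 432 and 406 at 14.5 dpc and 431 and 433 at 16.5 dpc, against 190.3 and 193 at 12.5 dpc and 232 and 269 at 13.5 dpc. Of its late arrays 3 were nearly equal and array 2 of 14.5 dpc a little lower, and the difference was 0.96 log2 (SE 0.11, adjusted p = 0.0157). The plasma carriers had 10 of 15 wholly above and a median of 0.35 log2 (0.22 log2 without 12.5 dpc). Hp, haptoglobin, the carrier of free hemoglobin, read 106 and 86.8 at 14.5 dpc and 121 and 117 at 16.5 dpc, against 7.90 and 6.74 at 12.5 dpc and 47.4 and 41.1 at 13.5 dpc, with both 12.5 dpc arrays under the floor. Its difference of 1.69 log2 (SE 0.25, adjusted p = 0.0383) is compressed for that reason.

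Other carriers showed how the list spread. Ahsg, fetuin A, read 3326 and 3366 at 14.5 dpc and 3397 and 3352 at 16.5 dpc, against 1083 and 709.7 at 12.5 dpc and 2046 and 1845 at 13.5 dpc. Its difference was 1.36 log2 with adjusted p = 0.0748, the spread within the middle side being large. Alb differed by 0.04 log2 and Afp by 0.09 log2. The apolipoproteins, the protein part of lipoproteins, had 0 of 13 called (10 at an unadjusted limma p under 0.05), 8 wholly above and 1 wholly below, with a median of 0.36 log2 (0.17 log2 without 12.5 dpc). Apob, the scaffold of very low density lipoprotein, had the smallest p of that list (adjusted p = 0.0819), reading 318, 350.3, 298 and 235 in late and 107, 118, 192 and 199 in middle liver.

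**Figure D2:**
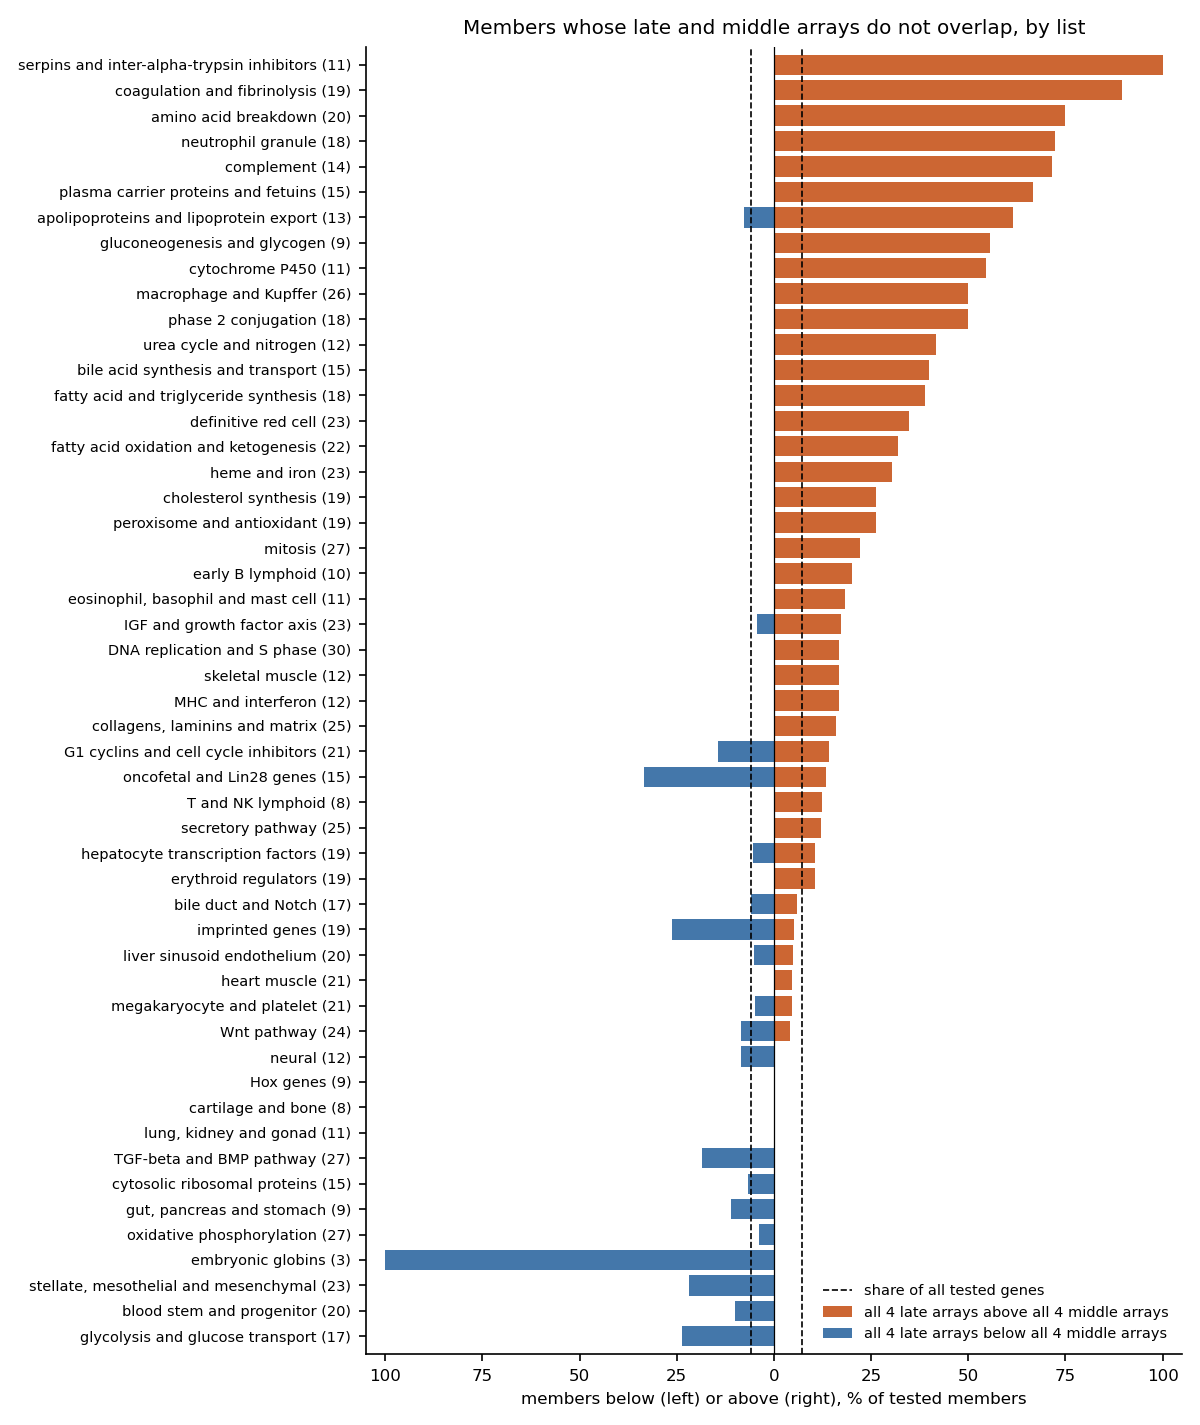
Share of the tested members of each of 51 gene lists (number tested in brackets) whose 4 late arrays all lie above (orange, right) or below (blue, left) all 4 middle arrays, in percent, with dashed lines at the shares of all tested genes, 7.19% and 5.76%. The serpin and inter-alpha-trypsin inhibitor list and the clotting list reach 100% and 89.5% above, and the glycolysis list has 23.5% below.

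The regulators and energy pathways of the hepatocyte had smaller median differences than most of these lists. Of 19 tested hepatocyte transcription factors 0 were called (4 at an unadjusted limma p under 0.05), 2 lay wholly above and 1 below, with a median of 0.08 log2 (0.02 log2 without 12.5 dpc). The shares over all tested genes were 7.19% above and 5.76% below. Foxa3, a forkhead factor of liver, had the smallest p, with 0.24 log2 and adjusted p = 0.178, and Hnf4a, the nuclear receptor that many liver genes depend on, differed by 0.22 log2. Fatty acid oxidation had 0 of 22 called (10 unadjusted) and a median of 0.18 log2, with Acaa1b, a peroxisomal thiolase, at 1.29 log2 and adjusted p = 0.0857. That median was 0.05 log2 without the 12.5 dpc arrays, with 14 of 22 members positive, near the 0.03 log2 of all genes, and 0.34 log2 without the 13.5 dpc arrays. Cholesterol synthesis had 0 of 19 called (14 unadjusted) and a median of 0.31 log2 (0.15 log2 without 12.5 dpc). Fdps, farnesyl diphosphate synthase, differed by 0.32 log2, adjusted p = 0.0836, and its other probe set by -0.06 log2. Fatty acid and triglyceride synthesis had 0 of 18 called (8 unadjusted) and a median of 0.18 log2, with Gpam, the first enzyme of triglyceride synthesis, at 0.34 log2 and adjusted p = 0.0778.

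The glycolysis list ran the other way, with a median of -0.14 log2 (-0.06 log2 without 12.5 dpc), 0 of 17 called (6 unadjusted), 0 wholly above and 4 wholly below. Pkm, pyruvate kinase of muscle and fetal type, read 770.3 and 652 at 14.5 dpc and 565 and 585 at 16.5 dpc, against 1066 and 1285 at 12.5 dpc and 894 and 826 at 13.5 dpc. Its groups did not overlap, but with a difference of -0.65 log2 its adjusted p was 0.0852. The peroxisome and antioxidant list had 1 of 19 called and a median of 0.16 log2 (0.07 log2 without 12.5 dpc). That gene, Hao1, the peroxisomal glycolate oxidase of liver, read 83.6 and 101 at 14.5 dpc and 60.1 and 80.7 at 16.5 dpc, against 23.1 and 10.2 at 12.5 dpc and 34.4 and 21.1 at 13.5 dpc, with 3 middle arrays under the floor and a difference of 1.57 log2 (SE 0.24, adjusted p = 0.04). Oxidative phosphorylation and cytosolic ribosomal proteins had medians of 0.00 and -0.02 log2 with 0 called of 27 (2 unadjusted) and of 15 (0 unadjusted). Cycs, cytochrome c, differed by -0.19 log2 (adjusted p = 0.162) and Rps6, a small subunit protein, by -0.22 log2 (adjusted p = 0.383). Other probe sets of Cycs gave -0.31, -0.18 and 0.26 log2. The secretory pathway, which carries plasma proteins out of the cell, had 0 of 25 called (3 unadjusted) and a median of 0.03 log2, with Ero1a, an oxidase of the endoplasmic reticulum, at 0.21 log2 and adjusted p = 0.139, and its other probe sets at -0.08 and 0.05 log2.

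Called genes outside the hepatocyte lists included both liver enzymes and genes of other kinds. Nrn1, neuritin, a membrane-anchored protein best known from neurons, had the smallest p of the whole table. It read 281 and 282 at 14.5 dpc and 271 and 286 at 16.5 dpc, against 85.1 and 66.1 at 12.5 dpc and 103 and 83.0 at 13.5 dpc. Here the late arrays were nearly equal and lay far above every middle array, with a difference of 1.75 log2 (SE 0.13, 95% interval 1.47 to 2.03, adjusted p = 0.00133), and adult liver read 1107 and 1383. Upb1, the last enzyme of pyrimidine breakdown, read 175 and 166 at 14.5 dpc and 100 and 75.3 at 16.5 dpc, against 48.5 and -4.58 at 12.5 dpc and 9.05 and 17.8 at 13.5 dpc, with 3 middle arrays under the floor. Its difference was 2.05 log2 (SE 0.33, adjusted p = 0.0445), and the 16.5 dpc arrays lay below those of 14.5 dpc. Aqp1, the water channel, a member of the red cell and the sinusoid endothelium lists, read 986 and 979.6 at 14.5 dpc and 1139.5 and 1116 at 16.5 dpc, against 502 and 403 at 12.5 dpc and 747 and 589.9 at 13.5 dpc, and rose by 0.95 log2 (SE 0.16, adjusted p = 0.0475). Btg2, an inhibitor of cell division, rose by 0.87 log2 (SE 0.14, adjusted p = 0.0445), with readings of 709.9, 735, 615 and 495 in late and 307, 418, 327 and 335 in middle liver, while its other probe set gave 0.41 log2.

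The remaining called increases, named after their values were seen, ran from 0.60 to 1.49 log2. Of other enzymes and transporters, Cyp4a12a and Cyp2c68 rose by 1.35 and 0.64 log2, Mtarc1, a mitochondrial reductase, by 1.02 log2, Gstp3 by 0.82 log2 and the glutamine transporter Slc38a3 by 0.79 log2. Interferon-induced Rsad2 and Oas3 rose by 0.92 and 0.62 log2, and 2 other probe sets of Rsad2 gave 0.87 and 1.36 log2. Tff3, a trefoil peptide of mucosa, rose by 1.01 log2 and Stfa3, a cysteine protease inhibitor, by 0.76 log2. Timd2, Upk1b, Keg1, Dtx1, Cdk5, Map3k7, Mdc1 and Mxd1 rose by 0.60 to 0.80 log2, and the predicted gene Gm28453 by 1.49 log2. Probe sets disagreed for Map3k7, whose other 3 gave -0.23, -0.09 and 0.06 log2, for Cdk5 (-0.23 log2), Dtx1 (0.06 log2) and Slc38a3 (-0.03 log2).

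The 8 genes that fell included growth and matrix regulators. Ptn, pleiotrophin, a heparin-binding growth factor, read 206 and 159 at 14.5 dpc and 163 and 170.3 at 16.5 dpc, against 584 and 521 at 12.5 dpc and 284 and 413 at 13.5 dpc. It fell by 1.32 on the log2 scale (SE 0.20, adjusted p = 0.04), with 2 other probe sets at -1.10 and -0.06 log2. Zfp503, a zinc finger repressor, read 181 and 178 at 14.5 dpc and 114 and 127 at 16.5 dpc, against 366 and 396 at 12.5 dpc and 244 and 284 at 13.5 dpc, and fell by 1.11 on the log2 scale (SE 0.20, adjusted p = 0.0494). Both genes were highest on the 12.5 dpc arrays, which also carried the heart muscle transcripts given below, and the part of these in the result was not tested. Without these arrays their differences were -0.98 and -0.84 log2 with adjusted p = 0.116 and 0.291.

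Of the other decreases, Pcbp4, an RNA-binding protein, read 113 and 109 at 14.5 dpc and 106 and 117 at 16.5 dpc, against 242 and 248 at 12.5 dpc and 161 and 193 at 13.5 dpc, and fell by 0.90 on the log2 scale (SE 0.14, adjusted p = 0.0416). Its other probe sets gave -1.21 and -0.76 log2. Reck, a membrane-bound inhibitor of matrix metalloproteinases, read 74.9 and 79.2 at 14.5 dpc and 69.5 and 81.6 at 16.5 dpc, against 140.3 and 113 at 12.5 dpc and 125 and 112 at 13.5 dpc, and fell by 0.68 on the log2 scale (SE 0.12, adjusted p = 0.0494). Tmem267 and Ttc7b fell by 1.04 and 0.97 on the log2 scale, Apol8 and Odr4 by 0.66 and 0.61. Odr4's other probe set gave -0.16 log2.

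**Figure D3:**
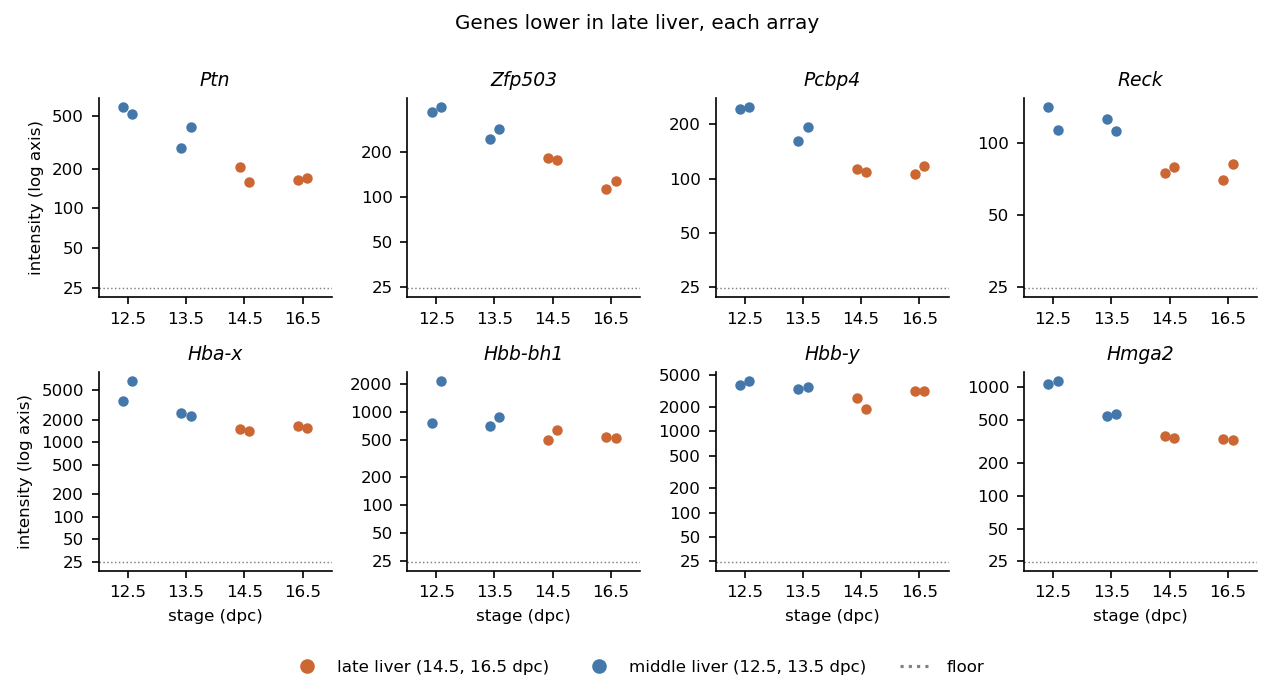
Probe set intensity (log axis) of 4 called genes that fell (top row) and of 3 embryonic globins and Hmga2, which were not called (bottom row), on each of the 8 arrays by stage, in orange for late and blue for middle liver. In each panel the 4 late arrays lie below the 4 middle arrays, and for Ptn, Zfp503, Pcbp4, Hba-x and Hmga2 the 12.5 dpc arrays are the highest.

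Embryonic globins had lower values in late liver, but 0 of 3 were called (3 at an unadjusted limma p under 0.05). They are made by the primitive red cells of the yolk sac, which circulate before red cells of the liver replace them. Hba-x, embryonic alpha-type globin, read 1510.5 and 1429.8 at 14.5 dpc and 1653 and 1566 at 16.5 dpc, against 3557 and 6680.2 at 12.5 dpc and 2468 and 2290.4 at 13.5 dpc, a difference of -1.15 log2 with adjusted p = 0.0948. Hbb-bh1 read 506, 653, 549 and 530.2 on late and 777, 2175, 722 and 884 on middle arrays, a difference of -0.87 log2 (adjusted p = 0.163). Hbb-y differed by -0.47 log2 (adjusted p = 0.142). All 3 lay wholly below, against 5.76% of all genes, and their median was -0.87 log2 (-0.52 log2 without 12.5 dpc). Hba-x met the rule for genes raised at 12.5 dpc that is given below, and without the 12.5 dpc arrays its difference was -0.63 log2 with adjusted p = 0.0310.

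Genes of definitive red cells had a small median difference. Of 23 tested members 1, Aqp1, was called, 8 lay wholly above and the median was 0.25 log2, and 0.09 log2 without the 12.5 dpc arrays, against 0.03 log2 for all genes. The probe set of Hba-a1, adult alpha globin, averaged only 73.0 ± 7.97 in late and 83.0 ± 9.04 in middle liver (SD, n = 4 each) and differed by -0.18 log2, while Alas2 and Slc4a1, a heme enzyme and an anion exchanger of red cells, read 3066 to 5595 over the 8 arrays. The erythroid regulators had 0 of 19 called (8 unadjusted) and a median of 0.14 log2 (0.05 log2 without 12.5 dpc). E2f2, a cell cycle factor of maturing red cells, had the smallest p, 0.52 log2 and adjusted p = 0.0642, while its other probe set gave 0.25 log2. Heme and iron genes had 0 of 23 called (13 unadjusted), 7 wholly above and a median of 0.25 log2 (0.11 log2 without 12.5 dpc), with Hpx, the heme carrier of plasma made by hepatocytes, at 0.62 log2 and adjusted p = 0.093. The summed level of 3 measured red cell markers was 9151 to 10424 in late and 7275 to 9447 in middle liver.

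Neutrophil granule genes had a median difference above that of all genes, without a call. Of 18 tested members 0 were called (13 at an unadjusted limma p under 0.05), 13 lay wholly above, 0 below and the median was 0.71 log2 (0.45 log2 without 12.5 dpc). Ms4a3, a membrane protein of granulocyte precursors, passed the p threshold (adjusted p = 0.0475) but its 0.58 log2 fell just short of 1.5-fold. Elane, neutrophil elastase, read 379, 359.5, 318 and 382 on late arrays, against 112 and 115 at 12.5 dpc and values between these at 13.5 dpc, a difference of 1.20 log2 with adjusted p = 0.0655. Camp, a granule antimicrobial peptide, and S100a8, a calcium-binding protein of neutrophils, differed by 1.13 and 0.98 log2 with adjusted p = 0.0645 and 0.0903. The 12.5 dpc arrays were the lowest for Elane and S100a8. The summed level of 5 neutrophil markers was 6036 to 7373 in late and 2641 to 4965 in middle liver.

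Macrophage and Kupffer cell genes had a smaller median difference. Of 26 tested members 0 were called (18 unadjusted), 13 lay wholly above, 0 below and the median was 0.41 log2 (0.27 log2 without 12.5 dpc). C1qb, a chain of complement C1q made by macrophages, read 456 and 458 at 14.5 dpc and 418 and 351 at 16.5 dpc, against 278 and 242 at 12.5 dpc and 297 and 309 at 13.5 dpc, a difference of 0.58 log2 with adjusted p = 0.0642. Cd5l, a protein secreted by tissue macrophages, differed by 1.15 log2 (adjusted p = 0.0857) and C1qa by 0.86 log2 (adjusted p = 0.0948). The sum of 5 macrophage markers was 3237 to 4073 in late and 2079 to 3269 in middle liver, and those ranges overlapped.

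In the lymphoid, mast cell, megakaryocyte, stem cell and MHC lists 0 genes were called, with 2 to 4 per list at an unadjusted limma p under 0.05. For comparison, 7.19% of all tested genes lay wholly above and 5.76% wholly below. Early B cell genes had 2 of 10 wholly above and a median of 0.06 log2, with Rag2, which recombines antigen receptor genes, at 0.36 log2 and adjusted p = 0.157. Zap70, a kinase of T and NK cell receptors, passed the p threshold (adjusted p = 0.0462) at 0.52 log2, under 1.5-fold, and its other probe set gave 0.05 log2. Eosinophil, basophil and mast cell genes had a median of 0.26 log2 with 2 of 11 wholly above, and Fcer1g, a receptor chain, differed by 0.38 log2 (adjusted p = 0.098). Megakaryocyte and platelet genes had a median of 0.02 log2, with Pf4, platelet factor 4, at -0.25 log2 and adjusted p = 0.111. Blood stem and progenitor genes had 0 wholly above and 2 of 20 below. In the MHC and interferon list 2 of 12 lay wholly above, and Irf1 differed by 0.36 log2 (adjusted p = 0.153).

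In the oncofetal and mesenchymal lists more genes lay wholly below than above, and several were highest at 12.5 dpc. Of 15 tested oncofetal genes 0 were called (8 unadjusted), 5 lay wholly below and 2 above, against 5.76% and 7.19% of all tested genes. Hmga2, a chromatin protein of growing embryos, read 359.7 and 343 at 14.5 dpc and 336 and 329 at 16.5 dpc, against 1077 and 1144 at 12.5 dpc and 547 and 570.5 at 13.5 dpc. Readings were lower at each later stage up to 14.5 dpc, and the difference was -1.20 log2 with adjusted p = 0.0645. Without the 12.5 dpc arrays it was -0.71 log2 with adjusted p = 0.0302. Of 23 tested stellate, mesothelial and mesenchymal genes 0 were called (10 unadjusted), 5 lay wholly below, 0 above and the median was -0.24 log2. Hand2, a factor of mesenchyme and heart, differed by -1.08 log2 with adjusted p = 0.0532, and by -0.76 log2 without 12.5 dpc. Its other probe set gave -0.20 log2. Pdgfra, a growth factor receptor of mesenchyme, differed by -1.04 log2 (adjusted p = 0.0857). The summed level of 4 stellate and mesenchyme markers was 938 to 1393 in late and 1179 to 1402 in middle liver.

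In the signalling, matrix, bile duct and imprinted lists 0 genes were called, with 3 to 13 per list at an unadjusted limma p under 0.05. Over all tested genes 7.19% lay wholly above and 5.76% wholly below. The TGF-beta and BMP pathway had 5 of 27 wholly below, 0 above and a median of -0.23 log2, with Bmpr1a, a BMP receptor, at -0.53 log2 and adjusted p = 0.0944. Other probe sets of Bmpr1a gave -0.35, -0.27 and -0.02 log2. The Wnt list had a median of -0.02 log2, and Tcf7l1, a Wnt-responsive repressor, differed by 0.46 log2 (adjusted p = 0.0903) with its other probe set at -0.20 log2. In the IGF and growth factor list Erbb3, a neuregulin receptor, differed by 0.48 log2 (adjusted p = 0.101), and its other probe set by 0.11 log2. Collagens, laminins and matrix had 4 of 25 wholly above, with Nid1, a basement membrane protein, at 0.36 log2 and adjusted p = 0.093. The bile duct and Notch list had 1 of 17 on either side, and Sox4 differed by -0.92 log2 (adjusted p = 0.0913) with 5 other probe sets between -0.78 and 0.05 log2. The sinusoid endothelium list had a median of 0.00 log2, with Aqp1 its called member. Mycn, in the stem cell and oncofetal lists, differed by -0.80 log2 (adjusted p = 0.0852), while other probe sets gave 0.02 and -0.01 log2. Imprinted genes had 5 of 19 wholly below, with Plagl1, a zinc finger factor, at -0.25 log2 and adjusted p = 0.101. Other probe sets of Plagl1, outside the test of 1 probe set a gene, gave -0.10 and -0.76 log2, the second with an unadjusted p = 8.24e-06.

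Cell cycle genes had small median differences. Mitosis genes had 0 of 27 called (9 unadjusted), 6 wholly above and a median of 0.12 log2 (0.08 log2 without 12.5 dpc), with Kif23, a motor of cytokinesis, at 0.34 log2 and adjusted p = 0.0994. Replication genes had 0 of 30 called (6 unadjusted), 5 wholly above and a median of 0.10 log2 (0.04 log2 without 12.5 dpc), with Cdc6, which loads the replicative helicase, at 0.30 log2 and adjusted p = 0.111. Of 21 tested G1 cyclins and inhibitors 1, Btg2, was called, with 3 wholly above and 3 below. All tested genes had 7.19% wholly above and 5.76% wholly below.

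Heart muscle genes were raised at 12.5 dpc. A gene counted as raised when both 12.5 dpc arrays lay above the other 6 and their mean log2 by at least 1. This held for 13 of 21 tested heart muscle genes, against 71 of 12770 genes (0.556%), and for 13 after each array was scaled to the same median. Only 10 of the 21 passed the filter without the 12.5 dpc arrays, and of the 13 raised genes only Actc1 and Myl3 did. The rest of the 13 were tested because of the values that the rule scores. The share of 13 in 21 is therefore a description and supports nothing. Myh7, a cardiac myosin heavy chain, read -1.44 and -4.40 at 14.5 dpc and -2.88 and -7.66 at 16.5 dpc, against 275 and 1045 at 12.5 dpc and -14.3 and 3.66 at 13.5 dpc. Only the 12.5 dpc arrays were above the floor, and the second of them was higher than the first. Nppa, atrial natriuretic factor, read -20.2 and -3.36 at 14.5 dpc and -11.6 and 4.52 at 16.5 dpc, against 178 and 1050.0 at 12.5 dpc and 4.32 and -7.52 at 13.5 dpc, in the same pattern. Tnnt2, cardiac troponin T, read 67.8 and 51.0 at 14.5 dpc and 65.9 and 55.6 at 16.5 dpc, against 387 and 1303 at 12.5 dpc and 39.2 and 58.8 at 13.5 dpc. Actc1, cardiac alpha actin, was clearly present on every array and read 898 and 621 at 14.5 dpc and 798 and 782 at 16.5 dpc, against 1958 and 4319.9 at 12.5 dpc and 434 and 644 at 13.5 dpc.

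Of the 21 tested heart genes 0 were called between late and middle liver (2 at an unadjusted limma p under 0.05), and the late and middle arrays of each of the 13 overlapped. Their differences lay between -2.22 log2 for Myh7 (SE 1.06, adjusted p = 0.283) and -0.35 log2 for Actn2. Nppa, Tnnt2 and Actc1 differed by -2.06, -1.63 and -0.69 log2. The others were the myosin light chains Myl7 (-1.79 log2), Myl2 (-1.28 log2) and Myl3 (-1.20 log2), the thick filament proteins Mybpc3 (-1.45 log2) and Myh6 (-1.17 log2), and Csrp3, Smpx and Pln at -0.88, -0.73 and -0.40 log2. Without the 12.5 dpc arrays 10 of the 21 heart genes were still bright enough to be tested, all 10 had a positive difference, and the list's median was 0.33 log2, against -0.69 log2 with them. Actc1 and Myl3 were among these, at 0.54 and 0.60 log2. Of these 10, Myl3, Hspb7 and Nppb passed the filter only through late arrays, since both 13.5 dpc arrays lay under it. The filter thus favoured their positive signs and in part the list's median, and the count of 10 supports nothing. Of the other 8 heart genes Myl4, an atrial light chain, had late arrays wholly above (0.72 log2, adjusted p = 0.0778), while its other probe set gave -0.57 log2.

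The summed level of 5 heart markers was 101 to 179 on the late arrays, against 1062 and 4970 at 12.5 dpc and 144 and 159 at 13.5 dpc. All 4 measured skeletal muscle markers together summed to 771 to 994 in late and 573 to 687 in middle liver. In the skeletal muscle list 0 of 12 genes were called (4 unadjusted). Mylpf, a fast skeletal light chain, differed by 0.75 log2 with adjusted p = 0.0852. Neural markers summed to 116 to 190.0 in late and 171 to 256 in middle liver, and gut and pancreas markers to 779 to 1044 in late and 775 to 1062 in middle liver. Of the other tissue lists, neural, gut, lung and kidney, cartilage and Hox, 0 genes were called, with 0 to 2 per list at an unadjusted p under 0.05. Their members with the smallest p were Nnat (-0.88 log2), Barx1 (-0.63 log2), Pax8 (0.29 log2), Sox6 (0.31 log2) and Hoxb3 (0.56 log2). The other probe sets of Pax8 and Hoxb3 gave -0.08 and -0.05 log2. The 71 raised genes also held the called decreases Ptn and Zfp503 and the uncalled Hmga2, Hba-x, Hand2, Sox4, Pdgfra, Id3 and Nnat. Whether heart tissue had a part in their values was not tested.

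**Figure D4:**
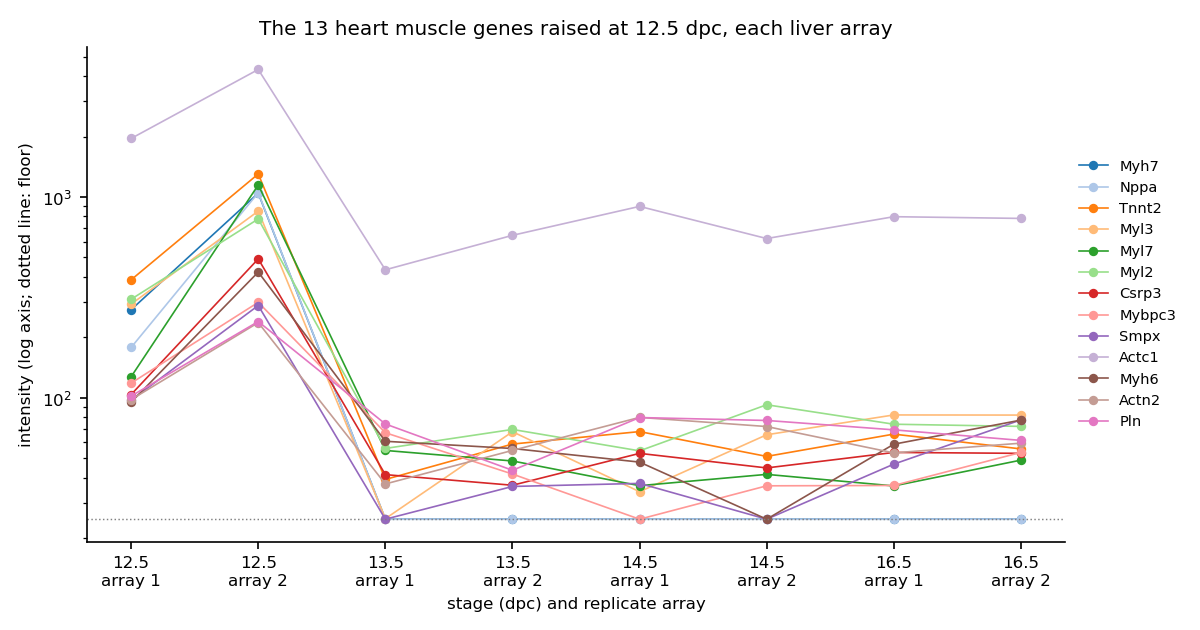
Probe set intensity (log axis, values under the floor drawn at it) of the 13 heart muscle genes raised at 12.5 dpc on each of the 8 liver arrays, in order of stage, 1 line a gene. Both 12.5 dpc arrays stand above the other 6 for every gene, and array 2 above array 1.

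Beyond the 4 stages, most called increases were higher in the adult than in late liver. Of the 39 genes, 37 were lower at 11.5 dpc than in middle liver. The share over all genes was not computed, so nothing is read from this count. Among the 37, Akr1d1, Cyp2d26, Cyp4a12a, Hao1, Hp, Sult1a1 and Upb1 were under the floor on both 11.5 dpc arrays and could not have been higher there. In adult liver 30 of the 39 were higher than in late liver, against 35.3% of all tested genes. The adult mean exceeded the late mean by at least 1 log2 for 25 of 39, against 6.61% of all tested genes. Cyp3a11 read 4759.8 and 6359.5 in adult liver, and Hp 2875 and 5334. There were 7 called genes at least 1 log2 lower in adult than in late liver. Btg2 was one of them, at 93.9 and 54.3 in the adult, and Stfa3 another, at 66.9 and 62.5. Aqp1 read 439.9 and 451 in the adult, below every late array.

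The 11 hepatocyte lists together had a median step of 0.41 log2 between 12.5 and 13.5 dpc, 0.31 log2 between 13.5 and 14.5 dpc and 0.00 log2 between 14.5 and 16.5 dpc. For all tested genes these medians were 0.01, 0.02 and 0.01 log2. The clotting list had a median of -2.31 log2 at 10.5 dpc against middle liver, and the P450 list lay 3.84 log2 higher in adult than in late liver. Of the 156 tested members, 141 were higher in the adult and 103 of them by at least 1 log2, against 35.3% and 6.61% of all tested genes. Red cell genes turned the other way, with a median adult minus late difference of -4.58 log2 and 0 of 23 higher in the adult.

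**Figure D5:**
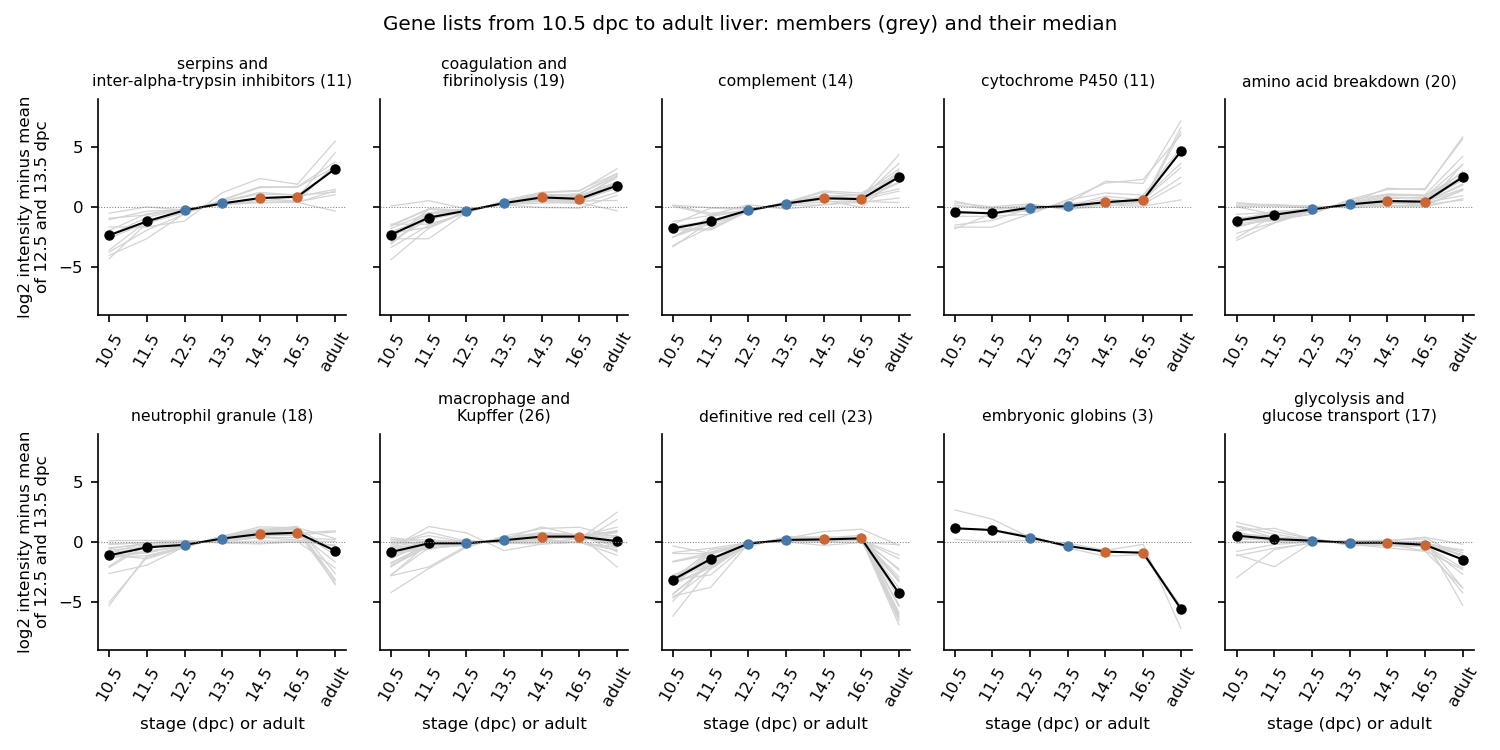
Mean log2 intensity at each stage and in adult liver minus the mean of 12.5 and 13.5 dpc for the members (grey lines) of 10 gene lists, with the median in black and dots in orange for the late and blue for the middle stages. The hepatocyte lists in the top row climb between 11.5 and 14.5 dpc, are level between 14.5 and 16.5 dpc and are highest in the adult, while red cell genes and embryonic globins are lowest there.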

How the data were processed

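RNA was extracted with Trizol and hybridised as biotinylated cRNA to Affymetrix MG 430 2.0 arrays, per the labels' protocols. The authors deposited linear probe set intensity values in 1 table of all arrays, and the sources used here do not give how these intensities were summarised or scaled. Groups came from the source names, since the age entry of the later liver samples repeats 10.5 dpc. Of 45101 probe sets, 34945 had 1 symbol in the platform annotation, 932 several and 9160 none, beside 64 controls. Intensities were raised to the 20th percentile of the table, 24.8, and taken to log2 with no further scaling. Each gene was represented by 1 probe set, the brightest by mean log2 over the 8 arrays, and tested when above 78.0, the 50th percentile, on at least 2 of them.

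Late and middle liver were compared with limma 3.58.1 in R 4.3.3 (lmFit, eBayes with an intensity trend, two-sided), with 1 mean a side and Benjamini-Hochberg adjustment over 12770 genes. On simulated data for this comparison, with 12770 genes, known differences of 1 log2 were called for 69% of changed genes. Those of 2 log2 were called for 84%, with 2 false calls. The simulation changed only brighter genes, drew independent noise without stages and used no filter on dim probe sets. Its rates therefore do not carry over to genes near the floor or to arrays that share a stage. Lists were described by counts and medians, with no set test. Named genes are the 10 largest called increases and all called decreases whose groups do not overlap, predicted genes passed over, up to 3 called members of each list or else the member with the smallest p, the heart genes raised at 12.5 dpc, and Alb, Afp and the embryonic globins. Others are named after their values were seen. The members, the gene lists and the tests were chosen with earlier results of these data known. Alternatives covered scaling, floor, filter, probe set, model, stages, threshold and each array. The number of arrays limits the precision.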

Additional observations from a re-analysis of the deposited data

Results flagged for a closer look

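In 12 of 118 groups of 4 arrays, 1 array stood apart from the other 3 by Dixon's criterion at 95%, which chance meets in about 1 group in 20. The other 18 groups had values under the floor and were not tested. Among late arrays, array 2 of 16.5 dpc was low for Cyp2c68 (467, others 489 to 490.4), Gnmt (186, others 221 to 223) and the heart factor gene Tbx5 (93.0, others 129.6 to 138). The same array was high for Hpd (976, others 766 to 792) and Slc38a3 (426, others 329 to 339). Array 1 of 14.5 dpc was low for Klkb1 (251, others 296 to 301) and Timd2 (206, others 249 to 251). Array 2 of 14.5 dpc was low for Hc (406, others 431 to 433) and Csrp3 (44.7, others 52.8 to 53.4).

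Among middle arrays, array 2 of 12.5 dpc was low for Ugt2b36 (73.5, others 142 to 152) and for Ttn, the giant titin of muscle (122, others 159 or more). Array 2 of 13.5 dpc was high for Rsad2 (202, others 190.1 to 191).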

How the results depend on the processing

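The counts of 39 genes higher and 8 lower in late liver moved with most settings. After scaling each array to the same median they were 17 and 9, so 65.4% of calls were higher, against 83.0% with the values as deposited, and after quantile normalization 22 and 8 (73.3% higher). With the floor at the 10th percentile they were 16 and 5, at the 40th percentile 48 and 14. With no filter 7 and 1 were called, with the mean of a gene's probe sets 25 and 5, and with no intensity trend 24 and 9. Fits with 4 stage means gave 174 and 91, with 7 group means of 14 liver arrays 106 and 81, and with stage as a random block 12 and 2. At 2-fold or more 19 and 3 were called, and with no minimum difference 48 and 13. Without both 12.5 dpc arrays 26 and 5 were called, without 13.5 dpc 298 and 123, without 14.5 dpc 5 and 4, and without 16.5 dpc 0 and 1. Leaving out 1 array at a time gave 2 to 55 higher and 0 to 26 lower. The causes of these shifts were not tested. With the replicate block 9 genes were higher and 0 lower, but the numbers did not pair the arrays, since same-numbered arrays' deviations correlated at -0.178 to 0.099.

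The sign turned for Alb after median scaling (-0.0075 log2), for Myl4 with the probe set highest over 18 arrays (-0.57 log2), for Actc1 and Myl3 without both 12.5 dpc arrays (0.54 and 0.60 log2), and for Actn2 and Pln without array 2 of 12.5 dpc (0.16 and 0.051 log2). Without both 12.5 dpc arrays Myl3 passed the filter through late arrays alone. Leaving out 1 array at a time, Actn2 lay between -0.73 and 0.16 log2 and Pln between -0.77 and 0.051 log2. The number of heart genes raised at 12.5 dpc was 13 also after median scaling. The 4 arrays a side from 2 stages each, and probe sets near the floor, limit what the test can call.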

Other observations

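Heart muscle transcripts were also high in the 10.5 dpc livers and not in those of 11.5 dpc. Myh7 read 2894 and 947 at 10.5 dpc and 24.2 and -11.5 at 11.5 dpc, and Actc1 read 6147 and 5044 at 10.5 dpc and 94.1 and 107 at 11.5 dpc. These stages enter no side of the comparison.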
